A study of Mus musculus with 6 samples.

Results

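The 10 genes described here are Nfe2l2, which encodes the transcription factor Nrf2, and 9 genes known as its antioxidant targets: Hmox1, Nqo1, Gclc, Gclm, Txnrd1, Srxn1, Slc7a11, Gsr and Sqstm1. They were taken as all probe sets assigned to 1 of these symbols alone, which gave 21 of the 45037 probe sets of the array other than controls and 10 of the 18193 genes measured. Retinas of light damaged BALB/c mice, an inbred albino strain, came from animals kept in the dark for 1 week, then exposed to white fluorescent light of 6000 lux for 6 h, and were collected 24 h after the exposure. Retinas of dark adapted BALB/c mice, the controls, had the same week in the dark and no light exposure. Each group had 3 Affymetrix arrays of total retinal RNA. The age of the mice, and whether an array held 1 animal or a pool, are not given in the sources used here, and a p-value here reflects the spread of these arrays, part or all of which can be technical. The question asked here is whether the 10 genes changed together.

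Nrf2 is held in the cytosol and marked for degradation by Keap1. Oxidants and electrophiles modify Keap1, and Nrf2 then enters the nucleus, where it pairs with a small Maf protein and binds antioxidant response elements, short DNA motifs near genes for glutathione, thioredoxin and quinone metabolism. The retina uses much oxygen and its photoreceptor membranes are rich in lipids that oxidise easily.

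The RefSeq table of gene starts (build GRCm38.p6) held 9 windows for 7 of the 10 genes, 3 of them for Txnrd1, and none for Hmox1, Gclc and Gsr. The 250 bases before each start were searched on both strands for 2 forms of the antioxidant response element core, TGACNNNGC and TGAGNNNGC, and for the AP-1 motif TGANTCA, which can overlap either form. A core form was found in 5 of the 9 windows, 1 window for each of 5 genes, and in 23.0% of all 32851 windows of this length. TGANTCA was found in 1 of the 9 windows, that of Srxn1, and in 6.75% of all windows. The stretches around the matches are shown so that the letters shared by these genes can be seen, 5′ to 3′ on the gene's own strand, with each match in capitals.
Srxn1, chr2:152105336-152105517, plus strand: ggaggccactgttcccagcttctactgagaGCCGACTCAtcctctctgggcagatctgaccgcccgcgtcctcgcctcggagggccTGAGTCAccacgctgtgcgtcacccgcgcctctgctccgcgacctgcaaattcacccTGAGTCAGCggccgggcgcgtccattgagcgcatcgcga
Txnrd1, chr10:82859084-82859152, plus strand: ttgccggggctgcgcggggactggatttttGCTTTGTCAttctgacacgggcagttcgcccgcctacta
Gclm, chr3:122245393-122245461, plus strand: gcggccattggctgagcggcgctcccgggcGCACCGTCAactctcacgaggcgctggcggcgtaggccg
Slc7a11, chr3:50443672-50443740, minus strand: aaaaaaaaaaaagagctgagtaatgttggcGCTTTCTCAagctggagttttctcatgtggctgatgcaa
Nfe2l2, chr2:75704865-75704913, minus strand: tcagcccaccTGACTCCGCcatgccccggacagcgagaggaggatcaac
In Srxn1 the last match, at bases -45 to -37 from the start, is at once a core form and the AP-1 motif, the middle one (-102 to -96) is the AP-1 motif alone, and the first (-158 to -150) is a core form on the other strand. The matches of Txnrd1, Gclm and Slc7a11 also lie on the other strand, so the capitals show the reverse complement of the motif. The windows of Nqo1 and Sqstm1 and the other 2 of Txnrd1 hold none of these letters. A match is a run of letters and says nothing of binding.

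Txnrd1 and Sqstm1 rose after light damage, each by about 0.8 to 0.9 on the log2 scale, and none of the 10 genes fell. The other 8 did not pass the threshold, an adjusted p under 0.05 in limma over all 18193 genes, two-sided (Benjamini-Hochberg). Across all genes 1.74% passed it as higher and 0.269% as lower, against 2 and 0 of these 10. In the sample titles each group has replicates 1 to 3, and arrays of the same number deviated together from their group means. With the number as a block in the fit (the replicate block), 8 of the 10 genes rose, none fell, and of all genes 6.73% passed as higher and 2.13% as lower. Over the 10 genes the median change was 0.52, against 0.03 over all genes, and 9 changes were positive, as were 57.0% of those of all genes, but with each array centred on a list of reference genes only 3 of the 10 stayed positive and their median was -0.07, against -0.56 for all genes. Centring subtracts the same amount from every gene, so the distance between the 10 genes and all genes is nearly the same in both scalings. The reference list was not level between the groups, as its B2m and Rplp0 rose by 2.04 and 1.20. Its Actb and Gusb rose by 0.70 and 0.74 with the replicate block. Centring without B2m and Rplp0, chosen after seeing the data, left 8 of the 10 positive, with a median of 0.22 and 0 past the threshold. This centring kept Actb and Gusb, and the median of all genes was then -0.264. All changes below are light damaged minus dark adapted values as deposited, on the log2 scale of RMA (robust multi-array average). In whole retinas, a change in the number of cells of a type and a change of RNA per cell cannot be told apart.

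Txnrd1 encodes the cytosolic thioredoxin reductase, which uses NADPH to keep thioredoxin reduced. Its brightest probe set read 8.90, 9.18 and 8.99 in light damaged replicates 1, 2 and 3, against 8.36, 8.26 and 7.87 in the dark adapted ones. Every light damaged array lay above every dark adapted one. The change was 0.87 ± 0.17 (SE), a 1.82-fold rise, with limma adjusted p = 0.0404 and 0.00324 with the replicate block. The call held without dark adapted replicate 1 and was lost without each of the other arrays, with adjusted p of 0.101, 0.174 and 0.165 without light damaged replicates 1, 2 and 3 and of 0.122 and 0.0646 without dark adapted replicates 2 and 3. It was also lost with arrays centred on reference genes (0.27, adjusted p = 0.153). The further probe sets of Txnrd1 gave smaller changes of 0.37 and 0.19, neither of which passed, and the last of these lay below the lower quartile of all probe sets on all 6 arrays.

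Srxn1 encodes sulfiredoxin, which repairs overoxidised peroxiredoxins. It read 8.39, 8.55 and 8.73 in light damaged replicates 1, 2 and 3, against 8.06, 7.82 and 8.12 in the dark adapted ones. The groups did not overlap. The change of 0.55 had a 95% interval of 0.21 to 0.89 and did not pass (limma adjusted p = 0.134), whereas with the replicate block it did (adjusted p = 0.017). Srxn1 has 4 probe sets, and the other 3 gave changes of 0.30, 0.30 and 0.05, with overlapping groups in each.

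Glutathione is made in a first step by glutamate-cysteine ligase, whose catalytic subunit is Gclc and whose modifier subunit is Gclm. Gclm read 8.32, 8.11 and 8.33 in light damaged replicates 1, 2 and 3, against 7.78, 7.37 and 7.91 in the dark adapted ones, again without overlap. Its change was 0.57, with a 95% interval of 0.18 to 0.95 (limma adjusted p = 0.185, and 0.0125 with the replicate block). Gclc read 7.92, 7.88 and 7.80 in light damaged replicates, against 7.59, 7.86 and 7.85 in dark adapted ones. Its groups overlapped, and only replicate 1 differed by more than 0.3 between the groups. The change of Gclc was 0.10, with an interval of -0.21 to 0.40 (limma adjusted p = 0.912, and 0.686 with the replicate block), and its further probe set gave 0.14. The difference between the changes of the subunits was not tested. The further probe set of Gclm gave 0.16 with overlapping groups.

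Gsr encodes glutathione reductase, which returns oxidised glutathione to its reduced form, and Slc7a11 the cystine-glutamate exchanger xCT, which brings in the cystine that limits glutathione synthesis. Gsr read 8.16, 8.52 and 8.37 in light damaged replicates 1, 2 and 3, against 7.89, 8.11 and 7.81 in the dark adapted ones. Slc7a11 read 5.68, 5.59 and 5.86 in light damaged replicates, against 5.07, 5.23 and 5.40 in dark adapted ones. In both genes the lowest light damaged value lay above the highest dark adapted one, by a margin of under 0.2. Gsr changed by 0.41 with an interval of 0.07 to 0.76 (limma adjusted p = 0.312, and 0.0476 with the replicate block). Slc7a11 changed by 0.48 with an interval of 0.15 to 0.81 (limma adjusted p = 0.196, and 0.024 with the replicate block). Their further probe sets gave 0.12 for Gsr and 0.35 for Slc7a11, with overlapping groups in both.

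Sqstm1 encodes p62, an autophagy receptor that also binds Keap1. Its brightest probe set read 10.92, 11.02 and 11.15 in light damaged replicates 1, 2 and 3, against 10.45, 10.20 and 9.93 in the dark adapted ones. All light damaged values exceeded all dark adapted values. It rose 1.79-fold, by 0.84 ± 0.16 (SE), with limma adjusted p = 0.0423, and 0.00659 with the replicate block. As for Txnrd1, the call held without dark adapted replicate 1 and was lost without any other array, at adjusted p of 0.109, 0.155 and 0.2 without light damaged replicates 1, 2 and 3 and of 0.158 and 0.0772 without dark adapted replicates 2 and 3. Centring on reference genes (0.25, adjusted p = 0.159) and a variance trend (adjusted p = 0.0648) also ended it. The further probe set of Sqstm1 read between 4.90 and 5.17 on the 6 arrays and gave a change of 0.08.

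Hmox1, the inducible heme oxygenase that breaks heme down to biliverdin, iron and carbon monoxide, had the largest change of the 10 genes and also the widest spread. It read 7.99, 7.44 and 8.30 in light damaged replicates 1, 2 and 3, against 6.58, 6.82 and 7.70 in the dark adapted ones. Dark adapted replicate 3 lay above light damaged replicate 2, so the groups overlapped. Its change of 0.88 had a 95% interval of 0.15 to 1.60 and did not pass (limma adjusted p = 0.312). With the replicate block the adjusted p was 0.00935, as the light damaged array was higher in each same-numbered pair, by 1.41, 0.63 and 0.59.

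Nqo1, a quinone reductase often used to report Nrf2 activity, read 4.87, 4.78 and 4.91 in light damaged replicates 1, 2 and 3, against 4.99, 4.69 and 5.08 in the dark adapted ones. Its single probe set lay below the lower quartile of all probe sets on all 6 arrays, where RMA compresses differences. The change was -0.07 with an interval of -0.40 to 0.27 (limma adjusted p = 0.953, and 0.78 with the replicate block), which limits the measured rise to 0.27 at this level of signal. Nfe2l2 itself read 7.86, 7.49 and 7.51 in light damaged replicates, against 7.56, 7.02 and 7.06 in dark adapted ones. Replicate 1 was the highest array of its group in both, and the groups overlapped. Nfe2l2 changed by 0.41 with an interval of -0.02 to 0.84 (limma adjusted p = 0.484, and 0.0416 with the replicate block), while its further, dim probe set gave -0.21. Nrf2 is controlled mainly through the stability of the protein, which arrays do not measure.

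**Figure D1:**
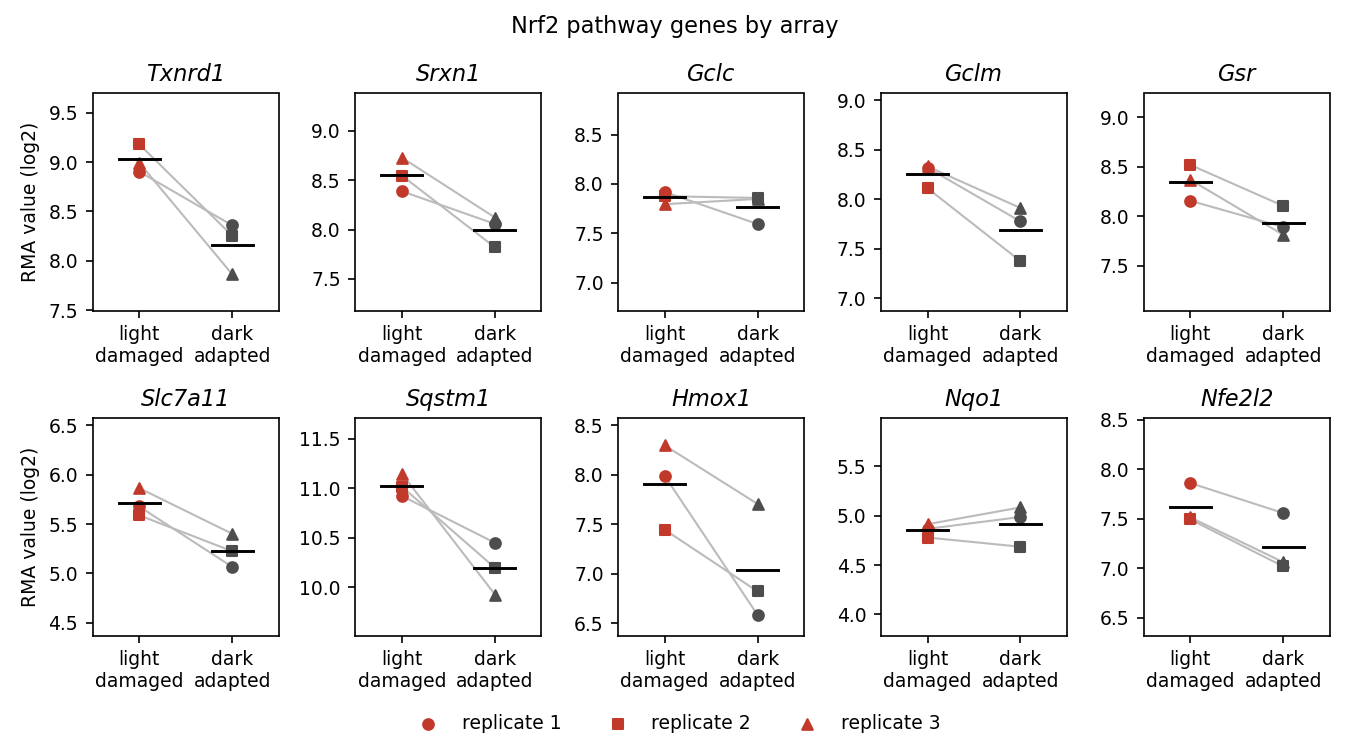
Log2 RMA value (y axis, each panel spanning 2.2 units) of the brightest probe set of each gene in the 3 light damaged (red, left) and 3 dark adapted (grey, right) arrays, with marker shapes and grey lines for replicate numbers and black bars for group means. The groups do not overlap in Txnrd1, Srxn1, Gclm, Gsr, Slc7a11 and Sqstm1 and overlap in Gclc, Hmox1, Nqo1 and Nfe2l2.

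The light damaged values lay wholly above the dark adapted ones in 6 of the 10 genes and wholly below in none, where 11.9% of all genes lay wholly above and 3.75% wholly below. Averaged over the 10 genes, the log2 level was 7.90, 7.86 and 7.995 in light damaged replicates 1, 2 and 3, against 7.43, 7.34 and 7.47 in the dark adapted ones. Within same-numbered arrays the light damaged value was higher in 9 genes for replicate 1, in 10 for replicate 2 and in 8 for replicate 3. It was higher in all 3 pairs in 8 genes, the same 8 that passed with the replicate block, and in 27.7% of all genes. The exceptions were Gclc and Nqo1, whose pair differences lay between -0.17 and 0.32. The size of the difference was not shared across the genes by replicate. Txnrd1 and Sqstm1 differed least in replicate 1 (0.54 and 0.47) and most in replicate 3 (1.13 and 1.22), whereas Hmox1 differed most in replicate 1 (1.41) and Gclm in replicate 2 (0.74). Over all genes the median difference was -0.012, 0.026 and 0.121 in replicates 1, 2 and 3. The upper quartile of array values was 7.67, 7.52 and 7.58 in light damaged replicates 1, 2 and 3, against 7.65, 7.49 and 7.41 in dark adapted ones. The part of these array-wide differences in those of single genes was not tested. Of the 10 genes 8 lay above the median level of the array, and among all 11565 genes above that level 2.57% rose, 9.83% rose with the replicate block, 64.9% had a positive change and 35.9% were higher in all 3 pairs.

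**Figure D2:**
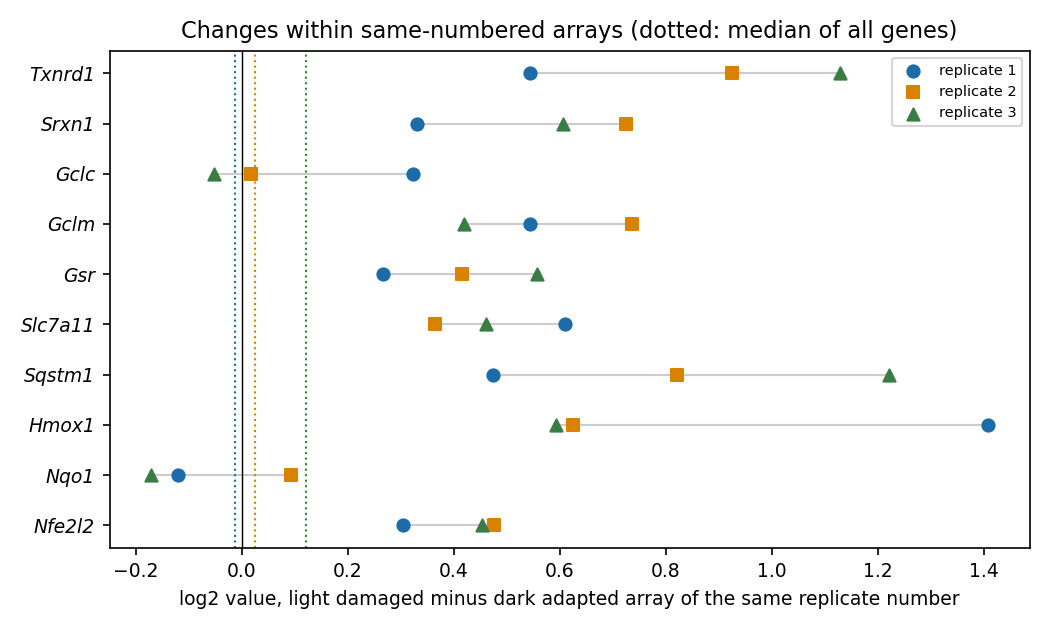
Difference of log2 values between the light damaged and the dark adapted array of the same replicate number (x axis) for each gene (y axis), with colours and marker shapes for replicates 1, 2 and 3 and dotted lines for the median of all genes in each pair (-0.01, 0.03 and 0.12). For 8 genes all 3 points lie to the right of 0 in the deposited scaling, and Gclc and Nqo1 straddle 0.

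Over all 21 probe sets the picture depends on the probe set. Tested among 45037 probe sets with limma, none of the 21 passed the threshold (lowest adjusted p = 0.0684, that of Txnrd1), and 0.913% of all probe sets passed as higher. An unadjusted p under 0.05 with a positive change was found in 7 of the 21, and in 6.45% of all probe sets. With the replicate block 6 of the 21 rose, those of Txnrd1, Sqstm1, Gclm, Hmox1, Srxn1 and Slc7a11, against 3.48% of all probe sets. These are the brightest probe sets of their genes over all 6 arrays, a choice that a rise in light damaged arrays favours. Of the 11 further probe sets none rose with the block, 10 had a positive change, and their changes lay between -0.21 and 0.37 with a median of 0.16. The light damaged values lay wholly above the dark adapted ones in 7 of the 21, against 8.99% of all probe sets. When a gene's probe sets were averaged, none of the 10 genes passed, with 0.48 for Txnrd1 (limma adjusted p = 0.142) and 0.46 for Sqstm1 (0.108).

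**Figure D3:**
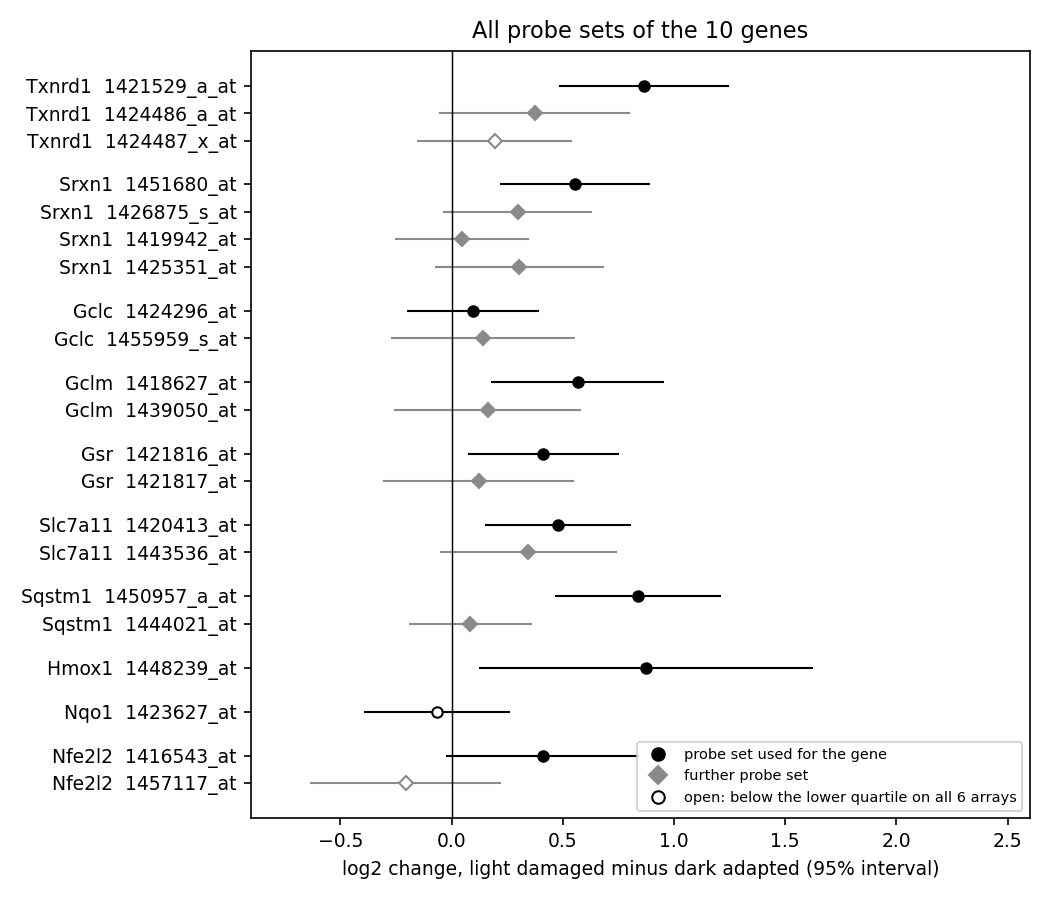
Change of each of the 21 probe sets (x axis, log2, light damaged minus dark adapted) with 95% intervals from the limma fit over all probe sets, grouped by gene (y axis). In every gene with several probe sets other than Gclc the brightest one (black circle) has the largest change. Brightness was taken over all 6 arrays, light damaged ones included, so a rise favours that choice. Open symbols lie below the lower quartile on all 6 arrays.

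The regulators of Nrf2 showed no gene past the threshold. The list held Keap1 and its ubiquitin ligase partners, the related factors Nfe2l1 and Nfe2l3, the small Maf partners and the repressors Bach1 and Bach2, and all 14 were measured. In limma 0 of 14 passed, and Dpp3 alone had an unadjusted p under 0.05, as did 11.0% of all genes in either direction. With the replicate block 1 of the 14 rose, against 6.73% of all genes. That gene was Dpp3, whose protein binds Keap1, with 0.44 and a limma adjusted p of 0.453 (0.0397 with the block). The median change of the list was 0.17.

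In the glutathione arm beyond the 10 genes, a few of the listed enzymes rose. Of 19 glutathione enzymes measured 2 rose and none fell, with a median of 0.14. Gpx8, a peroxidase of the endoplasmic reticulum, rose 1.97-fold, with 7.45, 7.88 and 7.65 in light damaged replicates, against 6.58, 6.79 and 6.68 in dark adapted ones (limma adjusted p = 0.0149). Gpx1, the main cytosolic glutathione peroxidase, rose 1.59-fold, with 9.44, 9.45 and 9.48 in light damaged replicates, against 8.92, 8.76 and 8.68 in dark adapted ones (limma adjusted p = 0.0369). Of 21 glutathione transferases measured 1 rose and none fell, with a median of 0.09. It was Mgst1, a membrane-bound transferase, with 8.62, 8.40 and 8.66 in light damaged replicates, against 7.35, 6.83 and 7.36 in dark adapted ones. Its change was 1.38 ± 0.18 (SE) at limma adjusted p = 0.00652, and the mean of its probe sets gave 0.73 (adjusted p = 0.0377). With the replicate block 5 of the glutathione enzymes and 3 of the transferases rose.

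Among 15 measured genes of the thioredoxin and peroxiredoxin system Txn1, the thioredoxin that Txnrd1 reduces, rose 1.62-fold and none fell. Prdx1, Prdx5 and Prdx6 were listed but not measured, as no probe set was assigned to their symbols alone. Txn1 read 9.99, 10.25 and 10.15 in light damaged replicates, against 9.42, 9.58 and 9.31 in dark adapted ones (limma adjusted p = 0.0464), but the mean of its probe sets had a change of -0.19, and the call was lost with renewed quantile normalization (adjusted p = 0.189). The median of the list was 0.23, and 3 rose with the replicate block, against 6.73% of all genes. Of the 6 superoxide dismutase and catalase genes none passed, all 6 changes were positive as deposited, and Sod2, the mitochondrial superoxide dismutase, had the smallest p (0.42, limma adjusted p = 0.37, and 0.0376 with the replicate block). Of 11 measured genes listed under NADPH supply none passed, with a median of 0.39, and 4 rose with the replicate block. The list was broad and included Me2 and Aldh4a1, and its G6pdx was not measured. Nadk, the kinase that makes NADP, was the member of this list with the smallest p (0.55, limma adjusted p = 0.0848). An unadjusted p under 0.05 was reached by 1 of the 6 superoxide dismutase and catalase genes and by 6 of the 11 genes listed under NADPH supply, against the 11.0% of all genes.

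Of 16 detoxification genes measured 3 rose and none fell, against 1.74% and 0.269% of all genes, with a median of 0.24. With the replicate block 4 rose, against 6.73% of all genes. Akr1c13, Abcc2 and Ces1d lay below the lower quartile of all probe sets on all 6 arrays. Aox1, an aldehyde oxidase, read 6.45, 6.81 and 6.82 in light damaged replicates, against 5.25, 5.60 and 5.33 in dark adapted ones, a 2.46-fold rise (limma adjusted p = 0.00561). Akr1b8, an aldo-keto reductase, rose 2.06-fold (limma adjusted p = 0.0201) and Ephx1, the microsomal epoxide hydrolase, 1.57-fold (limma adjusted p = 0.0447). In all 3 genes the groups did not overlap. None of 8 heme and iron partners passed, with Alas1, the first enzyme of heme synthesis, at 0.31 (limma adjusted p = 0.371). None of 15 autophagy genes passed either, with Gabarap, an Atg8-family protein, at 0.64 (limma adjusted p = 0.125, and 0.00669 with the replicate block). In each of these 2 lists 1 gene had an unadjusted p under 0.05, against 11.0% of all genes. With the replicate block 0 heme and iron genes and 1 autophagy gene rose, against the 6.73% of all genes.

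Over these 9 lists together 7 of 125 measured genes rose, which is 5.60% against 1.74% of all genes, and none fell. With arrays centred on the reference genes 2 of the 125 passed as higher and 53 as lower. Of all 18193 genes 177 then passed as higher and 11308 as lower. The lists held 140 genes. Not measured, in that no probe set was assigned to their symbols alone, were Ggt1, Gsta1, Gstp2, Prdx1, Prdx5, Prdx6, G6pdx, Ftl1, Optn, Akr1b3, Ugt1a6a, Esd, Cyp2a5, Trim16l and Htatip2. With the replicate block 22 rose, 17.6% of the 125 against 6.73% of all genes. Among all genes above the median level 2.57% rose, and 9.83% with the block. The median change of the 125 was 0.21. Of their changes 78.4% were positive as deposited, against 57.0% over all genes and 64.9% over the genes above the median level. Of the 7 genes that rose, Aox1 kept its call with any 1 array left out, and Mgst1 lost it without light damaged replicate 3 (adjusted p = 0.0508). Gpx8 lost it without light damaged replicates 2 and 3 and dark adapted replicate 2 (0.0725, 0.0828 and 0.0539), and Akr1b8 without light damaged replicates 2 and 3 and dark adapted replicate 3 (0.0835, 0.102 and 0.0552). Gpx1 kept it only without dark adapted replicate 1 (adjusted p up to 0.165 otherwise), and Txn1 and Ephx1 lost it without any 1 of the 6 arrays (adjusted p up to 0.203 and 0.195).

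**Figure D4:**
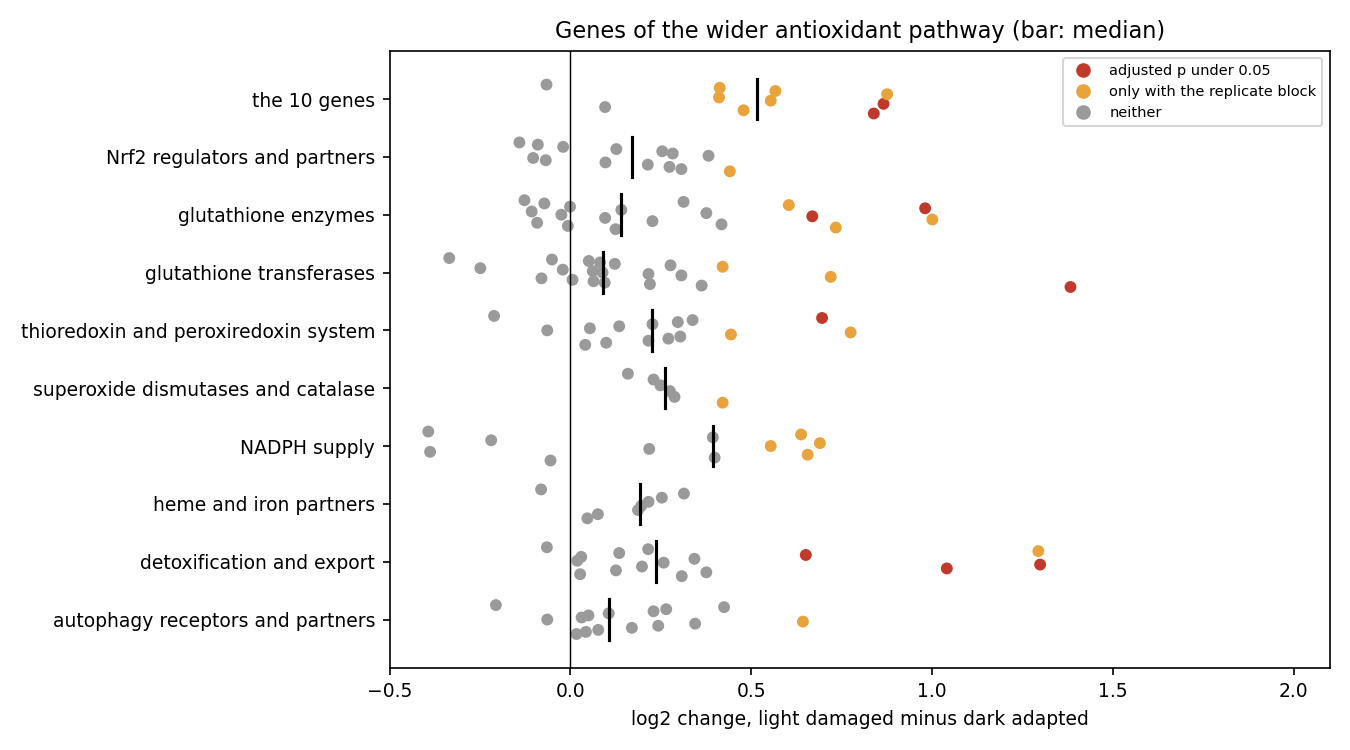
Change of each gene (x axis, log2, light damaged minus dark adapted, deposited scaling) in the 10 genes and the 9 lists of the wider pathway (y axis), with red for limma adjusted p under 0.05, orange for genes that passed only with the replicate block, grey for the rest and black bars for medians. The median of the 10 genes is 0.52 and those of the lists lie between 0.09 and 0.39. With arrays centred on reference genes every point moves left by the same amount and most fall below 0.

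The 3 genes whose values followed those of Txnrd1 most closely over the 6 arrays were Sec23b, a subunit of the COPII vesicle coat (Pearson r = 0.9984), Tnc, the matrix protein tenascin C (0.9969), and Ttll12 (0.9967). For Sqstm1 they were Elp5, an Elongator subunit (0.9985), Psmd14, a deubiquitinase of the proteasome lid (0.9975), and Vti1b, a SNARE protein of endosomes (0.9969). These values describe 6 arrays that share the difference between the groups, and carry no p. None of the 6 genes passed the threshold, with changes between 0.37 and 0.68, but 4 passed with the replicate block, Sec23b (adjusted p = 0.0286), Tnc (0.00685), Ttll12 (0.0108) and Psmd14 (0.0171). Of all genes 6.73% passed as higher with the block. The 6 genes were picked for their likeness to called genes on the same arrays, so their rise follows from that choice.

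Markers of some cell types differed between the groups, some higher and some lower. Of 15 measured microglia and macrophage markers 4 rose and none fell, with 7 higher and 1 lower with the replicate block, and Cd68 changed most (1.88, limma adjusted p = 0.00474). Their mean log2 level was 6.52 to 6.63 on light damaged arrays, against 5.98 to 6.11 on dark adapted ones, with Ptprc alone below the lower quartile on all 6. Of 11 measured Müller glia markers 2 rose, Gfap most (1.75, limma adjusted p = 0.00693), while 5 were higher and 3 lower with the replicate block, at mean levels of 9.49 to 9.89 on light damaged arrays, against 9.23 to 9.57 on dark adapted ones. Of 11 rod markers 2 fell, 8 with the replicate block, and Nrl changed most (-1.04, limma adjusted p = 0.0378). The call of Nrl was lost without light damaged replicates 2 and 3 (adjusted p = 0.158 and 0.192) and without dark adapted replicates 1 and 2 (0.0653 and 0.135). The mean rod level was 10.98 to 11.43 on light damaged arrays, against 11.66 to 12.15 on dark adapted ones, above the upper quartile of every array. None of the 9 retinal pigment epithelium markers passed (Rdh5 0.82, limma adjusted p = 0.193), at mean levels of 6.51 to 7.25 on light damaged and 6.47 to 6.90 on dark adapted arrays. None of 8 lens markers passed (Bfsp1 -1.12, limma adjusted p = 0.735), at 9.99 to 11.51 on light damaged and 10.17 to 11.55 on dark adapted arrays. The mean lens level, like that of the rod markers, was thus above the upper quartile of every array. None of 9 vascular markers passed (Kdr 0.44, limma adjusted p = 0.191), at 6.85 to 6.93 on light damaged and 6.63 to 6.83 on dark adapted arrays, and none of 4 blood cell markers (Epb42 -0.28, limma adjusted p = 0.751), at 5.20 to 5.49 on light damaged and 5.24 to 5.62 on dark adapted arrays. At an unadjusted p under 0.05 these 4 lists held 2, 0, 1 and 0 genes, against 11.0% of all genes. With the replicate block 1 pigment epithelium and 1 vascular marker rose and 2 lens markers fell. The part of these cell types in the changes of the 10 genes was not tested.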

How the data were processed

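The deposited log2 values, whose scale was judged from a range of 3.30 to 13.89, were made with RMA by the authors, per the submitters' processing notes, with no version given in the sources used here. They were used as deposited. Of 45101 probe sets 64 were controls, 34945 had 1 gene in the platform annotation of GEO, 932 had several and 9160 had none, and no probe set was shared by 1 of the 10 genes and another gene. Symbols of 34741 were matched by Entrez identifier to RefSeq (GRCm38.p6), which changed 0 names. Each gene was represented by its probe set with the highest mean. Light damaged and dark adapted arrays were compared in R 4.3.3 with limma 3.58.1 (lmFit, then eBayes with no trend), over all genes and, separately, over all probe sets, and the fit was checked on simulated data. Intervals are 95% intervals from the same fit.

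Replicate numbers pair the arrays by the data and not by a label: deviations from the group means correlated at 0.731, 0.618 and 0.432 for same-numbered arrays and between -0.48 and 0.00902 for others. Correlations of arrays within a group were 0.966 to 0.985. The number of arrays limits the precision. The 10 genes, the lists and the tests were chosen with earlier results of these data known. Genes named are the 10 members, up to 3 genes past the threshold with the largest change per pathway list (1 per marker list) or else the gene with the smallest p, and the 3 genes closest in Pearson correlation to each member past the threshold. Alternatives were the replicate block, renewed quantile normalization, centring on reference genes, the mean of probe sets, leaving out _x_at and _s_at probe sets, a filter on dim probe sets, a variance trend and leaving out each array.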

Additional observations from a re-analysis of the deposited data

How the results depend on the processing

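With 3 arrays per group few calls were stable. The replicate block gave 1613 genes over all genes against 365 without it (1225 higher and 388 lower, against 316 and 49), 2109 probe sets against 458, 8 of the 10 genes against 2, 6 of their probe sets against 0 and 22 pathway genes against 7. With 1 array left out, these counts ranged from 151 to 417 genes, 128 to 380 probe sets, 0 to 2 of the 10 genes, 0 to 1 of their probe sets and 1 to 9 pathway genes. The median change of the 10 genes stayed between 0.466 and 0.59, and 9 to 10 were positive. Renewed quantile normalization kept 2 of the 10 genes, with 327 genes higher and 162 lower over all genes. The variance trend kept 1 of the 10 genes (Sqstm1 adjusted p = 0.0648) and 4 pathway genes. The mean of probe sets gave 0 of the 10 genes and a median of 0.333 for them. Testing only probe sets above the median level called 2 of their probe sets among fewer tests. Leaving out _x_at and _s_at probe sets changed none of these counts by over 1.5 times.

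Centring on the 9 reference genes, which shifts the median of all genes to -0.559, gave 11485 genes (177 higher and 11308 lower), 29516 probe sets, 1 of the 10 genes (Nqo1, lower), 4 of their probe sets, 55 pathway genes, 3 positive members and a member median of -0.074. It turned Nfe2l2 (-0.18), Gclc (-0.494), Gclm (-0.024), Srxn1 (-0.037), Slc7a11 (-0.112), Gsr (-0.178), Dpp3 (-0.15), Sod2 (-0.169), Nadk (-0.036), Alas1 (-0.276), Kdr (-0.149), Sec23b (-0.098), Elp5 (-0.166), Psmd14 (-0.001) and Vti1b (-0.224) negative. Centring without B2m and Rplp0, chosen after seeing the data, shifted the median of all genes to -0.264 and gave 0 of the 10 genes, 1 pathway gene, a member median of 0.221 and Gclc at -0.199. Gclc also turned to -0.005 with renewed quantile normalization, Txn1 to -0.19 with the mean of probe sets, and Nqo1 to 0.017 without dark adapted replicate 3. The cause of these shifts other than the subtraction by centring was not tested.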

Other observations

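Of 12 genes listed as references 9 were measured, and they were not level between the groups. Of these 9 genes 8 had positive changes with a median of 0.27, 2 rose and 4 rose with the replicate block. The 2, named after their values were seen, were B2m, the light chain of MHC class I (2.04, limma adjusted p = 0.00264), and Rplp0, a ribosomal protein (1.20, limma adjusted p = 0.00441). With the replicate block Actb (0.70, limma adjusted p = 0.0112) and Gusb (0.74, limma adjusted p = 0.00362) also rose. The mean log2 level of the 9 reference genes was 10.32 to 10.48 on light damaged arrays, against 9.60 to 10.03 on dark adapted ones. Centring on these 9 genes subtracts this difference from every gene.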
